A study of Homo sapiens with 9 samples.

Results

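The 10 human globin genes were followed in bulk RNA-seq of SET2 cells, a line of *JAK2* mutant megakaryoblastic leukemia. They were taken as the entries of the deposited count table whose symbol is *HBA1*, *HBA2*, *HBB*, *HBD*, *HBE1*, *HBG1*, *HBG2*, *HBM*, *HBQ1* or *HBZ*, and all 10 were found once among the 60662 genes listed. The 9 libraries, all from untreated cells, fell into 3 groups: WT for *DYRK1A* (n = 3), clone 11H1 with *DYRK1A* KO (n = 3) and clone 14B5 with the same genotype (n = 3). Each clone descends from 1 sorted cell of a culture nucleofected with Cas9 protein and one sgRNA, and was kept because its indels were all out of frame. No clone of an unedited cell was sequenced, so the edit and the founder cell cannot be told apart, and the 3 libraries of a clone measure that clone only. Nothing states that the libraries of a group came from separate cultures, so the p values describe the spread between these libraries, which may be technical.

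Hemoglobin is a tetramer of a pair of alpha-like and a pair of beta-like chains around heme. The alpha-like genes lie in order of use on the short arm of chromosome 16, with zeta-globin (*HBZ*) in the embryo and alpha-globin (*HBA2*, *HBA1*) thereafter. The beta-like genes lie on the short arm of chromosome 11, with epsilon-globin (*HBE1*) in the embryo, gamma-globin (*HBG2*, *HBG1*) in the fetus, and delta- and beta-globin (*HBD*, *HBB*) in the adult. Each cluster is driven from a distant enhancer region by erythroid factors such as GATA1, TAL1 and KLF1, and the move from one gene to the next is called globin switching. Lines from megakaryoblastic leukemia often carry embryonic and fetal rather than adult beta-like transcripts.

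Positions are those of GENCODE v29 on GRCh38, and all 10 are protein-coding genes. On the forward strand of chromosome 16 the order was *HBZ* (152687 to 154503), *HBM* (153892 to 166768), *HBA2* (172876 to 173710), *HBA1* (176680 to 177522) and *HBQ1* (180453 to 181181). On the reverse strand of chromosome 11 the coordinates ran *HBB* (5225464 to 5229395), *HBD* (5232678 to 5243657), *HBG1* (5248079 to 5249859), *HBG2* (5253190 to 5505605) and *HBE1* (5268345 to 5505652). The models of *HBG2* and *HBE1* include long upstream transcripts and share exonic bases with each other, the *HBM* model shares exonic bases with *HBZ*, and a further annotated *HBD* transcript, not the principal one, has exons that overlap those of the pseudogene *HBBP1*. The coding sequences of *HBA1* and *HBA2* were identical over 429 bases, and those of *HBG1* and *HBG2* differed at 2 of 444 bases. Reads from such a pair are divided by estimate, so the split within either pair is uncertain and sums over the pair are given beside it. *HBB* and *HBD* shared 412 of 444 coding bases (92.8%).

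The bases upstream of the start site are shown for *HBD* and *HBM*, whatever their values. They were the only members matched by symbol in the RefSeq promoter table (GRCh38.p14). Each line gives the 250 bases before the start, 5′ to 3′ on the gene's strand, with capitals for the motifs found.
HBD, reverse strand, chr11:5234484-5234733: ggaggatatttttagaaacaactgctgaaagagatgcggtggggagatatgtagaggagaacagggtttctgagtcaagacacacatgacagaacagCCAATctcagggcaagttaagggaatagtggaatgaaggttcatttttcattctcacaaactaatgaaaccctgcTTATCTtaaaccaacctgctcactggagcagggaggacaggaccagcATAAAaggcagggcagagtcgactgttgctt
HBM, forward strand, chr16:165728-165977: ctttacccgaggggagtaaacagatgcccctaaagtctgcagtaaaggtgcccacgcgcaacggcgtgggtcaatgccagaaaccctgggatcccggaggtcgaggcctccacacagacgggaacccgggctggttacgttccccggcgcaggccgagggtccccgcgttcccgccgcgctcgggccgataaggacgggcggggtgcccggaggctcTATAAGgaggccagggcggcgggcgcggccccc
The search covered a GATA box on both strands (AGATAA, its variant TGATAA in the first base, its variant AGATAG in the last base, and the variant TGATAG in both), a CCAAT box (both strands), a CACCC box (CCACCC, both strands) and TATA-like letters (ATAAA or TATAAG, gene strand). The *HBD* window held the GATA letters read on the other strand at -78 to -73, the letters CCAAT at -153 to -149 and ATAAA at -31 to -27. These are matches of letters, and whether they act as promoter elements was not tested. The *HBM* window held TATAAG at -33 to -28 and none of the other letters. Of 35116 RefSeq promoter windows of the same length, 22.3% held the GATA letters, 32.0% CCAAT, 31.3% CCACCC and 23.3% the TATA-like letters.

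Library totals ran from 32347779 to 60272245 expected counts. Mitochondrially encoded genes took 3.54% to 6.03% of the WT counts, 7.23% to 7.39% of the 11H1 counts and 3.30% to 3.92% of the 14B5 counts. *DYRK1A* was at 196 to 218 CPM (counts per unit of library size, each library size adjusted by edgeR's TMM factor) in WT, 188 to 192 in 11H1 and 174 to 191 in 14B5, and gene counts do not show the indels themselves. Of 10 megakaryocyte markers, 7 reached 1 CPM in WT, 6 in 11H1 and 5 in 14B5, and their summed level was 1122 to 1129, 755 to 779 and 673 to 694 CPM. *PF4*, a platelet chemokine and defining marker, was at 0.461 to 0.559 CPM in WT and at 0 in all 6 libraries of the clones. Of 8 erythroid markers, 7 reached 1 CPM in each group, with summed levels of 698 to 762 CPM in WT, 844 to 901 in 11H1 and 833 to 870 in 14B5. The summed monocyte markers, 1 of 4 of which reached 1 CPM, were at 196 to 199 CPM in WT, 101 to 109 in 11H1 and 111 to 123 in 14B5, and the 5 lymphoid markers at 21.7 to 24.3, 18.5 to 20.2 and 11.4 to 13.5 CPM. The 4 granulocyte markers summed to at most 1.84 CPM in any library. In bulk RNA, fewer cells that hold a transcript and less of it per cell cannot be told apart, and the part of these marker levels in the globin values was not tested.

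SET2 cells held a fetal pattern in every group. Gamma-globin *HBG2* alone gave 85.4% ± 0.758 of all globin counts in WT (SD, n = 3), 79.5% ± 0.679 in 11H1 and 86.2% ± 1.58 in 14B5. It ranked first among nuclear genes in all 6 libraries of the clones and first or second in WT. The 10 genes together took 1.44% ± 0.10 of the library in WT, 1.32% ± 0.0576 in 11H1 and 1.51% ± 0.0695 in 14B5. The WT range, 1.33% to 1.52%, overlapped that of each clone (exact permutation test, 2-sided, p = 0.2 for 11H1 and p = 0.4 for 14B5).

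Levels of different genes were ordered per length, as CPM per kilobase of the principal transcript. In WT the order was *HBG2* (20149 ± 1525), *HBA1* (2305 ± 213), *HBA2* (1053 ± 95.4), *HBE1* (93.9 ± 9.74), *HBZ* (68.7 ± 6.29), *HBG1* (39.4 ± 3.69), *HBD* (9.49 ± 2.90), *HBQ1* (9.05 ± 2.86), *HBB* (3.63 ± 0.417) and *HBM* (0.431 ± 0.213). The libraries of *HBD* and *HBQ1* overlapped, and those of the other neighbours in this order did not. In 11H1, *HBZ* stood below *HBG1* (24.0 ± 2.12 against 49.1 ± 2.19 CPM per kilobase). In 14B5, *HBZ* had dropped past *HBG1*, *HBQ1* and *HBD* to 4.39 ± 0.316 CPM per kilobase, next above *HBB* (3.84 ± 0.214), and in both clones no neighbours overlapped. *HBG2* stood 8.74 times above *HBA1* per kilobase in WT, 5.47 times in 11H1 and 8.49 times in 14B5.

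**Figure D1:**
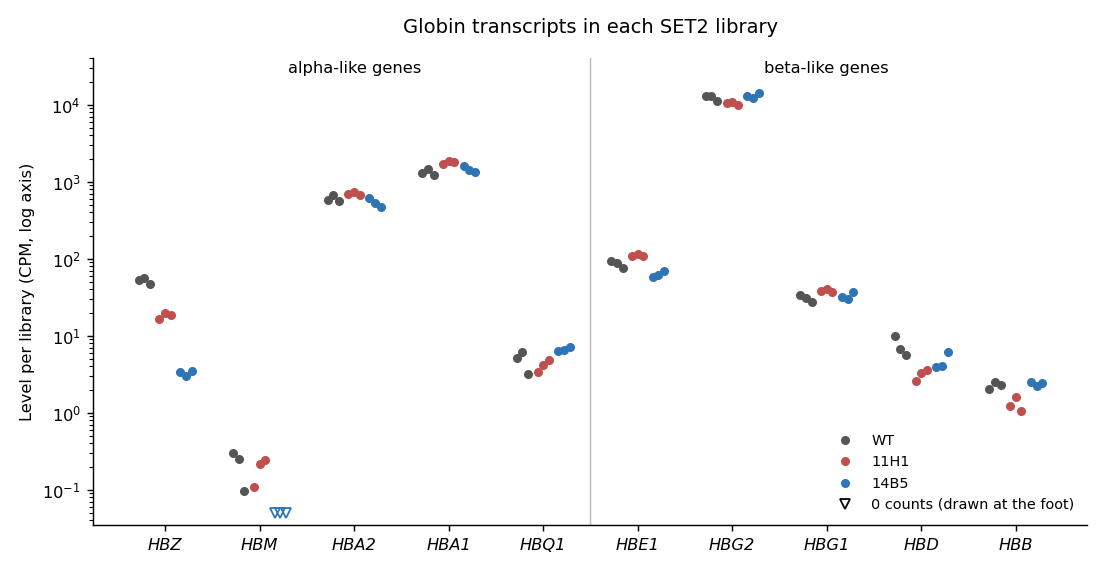
Level of each globin gene in each library (CPM, log axis), alpha-like genes on the left and beta-like genes on the right in the order of their use; points are single libraries, 3 per group, and triangles mark libraries with 0 counts. *HBG2* lies near the top of the axis in all groups, while *HBZ* steps down from 46.7 to 55.9 CPM in WT to 3.04 to 3.48 CPM in 14B5.

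The clones were each compared with WT, as the design of the series sets out, and then with each other. All 10 genes passed the filter on low counts in 11H1 versus WT, and all but *HBM* in the other comparisons. In 11H1 versus WT, 8 of the 10 passed an adjusted p of 0.05 (edgeR's quasi-likelihood test, Benjamini-Hochberg over all genes tested), 4 higher and 4 lower. Of all 16675 genes tested there, 64.6% passed, 31.8% higher and 32.8% lower. In 14B5 versus WT, 3 of 9 passed, all lower (*HBZ*, *HBE1* and *HBD*), where 53.5% of 16537 genes passed, 24.9% higher and 28.7% lower. In 11H1 versus 14B5 all 9 passed, 5 higher in 11H1 and 4 lower, where 63.7% of 16352 genes passed, 31.6% higher and 32.1% lower. Most tested genes differed in each comparison, and the counts of globin genes are to be read against those shares. Both clones are set against the same WT libraries, so their values are given side by side.

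**Figure D2:**
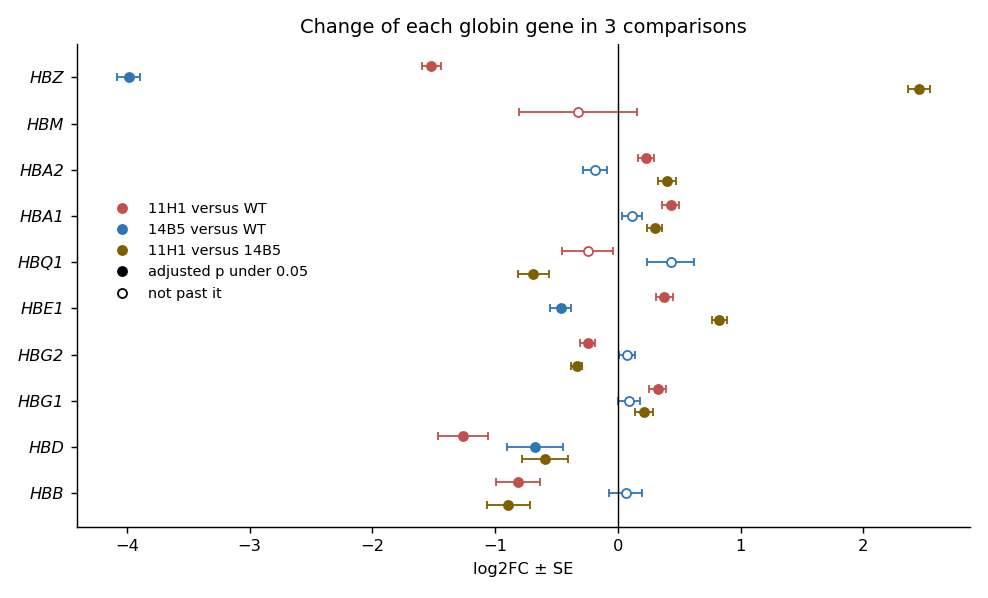
Log2FC of each globin gene in 11H1 versus WT, 14B5 versus WT and 11H1 versus 14B5, with bars for the SE of the fit; filled points passed an adjusted p of 0.05 and open points did not. *HBM* has a point for 11H1 versus WT only, and *HBZ* in 14B5 lies farthest from 0, at -3.99.

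The embryonic alpha-like gene *HBZ* fell in both clones. In libraries 1 to 3 of each group it gave 53.1, 55.9 and 46.7 CPM in the WT libraries, 16.4, 19.5 and 18.4 CPM in those of 11H1 and 3.43, 3.04 and 3.48 CPM in those of 14B5. The 3 groups were fully separate, with WT highest and 14B5 lowest. The level was 2.87-fold lower in 11H1 than in WT (log2FC = -1.52, SE 0.08, edgeR adjusted p = 1.71e-08) and 15.9-fold lower in 14B5 (log2FC = -3.99, SE 0.09, adjusted p = 1.04e-09). It was 5.48-fold higher in 11H1 than in 14B5 (log2FC = 2.45, SE 0.09, adjusted p = 2.05e-09). As a share of the alpha-like counts, *HBZ* was 2.60% ± 0.111 in WT, 0.720% ± 0.0335 in 11H1 and 0.167% ± 0.0216 in 14B5. In the 14B5 library with the fewest such counts it was 0.154% (95% Wilson interval 0.131% to 0.180%, for counting error only).

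The embryonic beta-like gene *HBE1* moved in opposite directions in the clones. It gave 93.2, 89.2 and 76.1 CPM in the WT libraries, 110, 116 and 109 CPM in those of 11H1 and 58.3, 61.0 and 69.9 CPM in those of 14B5. Again no groups overlapped, but here WT lay between the clones. *HBE1* rose in 11H1 (log2FC = 0.38, SE 0.07, edgeR adjusted p = 0.000421) and fell in 14B5 (log2FC = -0.47, SE 0.09, adjusted p = 0.00122), and it was 1.77-fold higher in 11H1 than in 14B5 (adjusted p = 4.5e-07). Its share of the beta-like counts was 0.688% ± 0.0214 in WT, 1.06% ± 0.0245 in 11H1 and 0.475% ± 0.0265 in 14B5. In 11H1 the embryonic genes thus went opposite ways, and their sum stayed near 1% of all globin counts (0.952% ± 0.0227 in WT and 0.994% ± 0.0220 in 11H1). In 14B5, where both fell, the sum was 0.434% ± 0.0291.

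The fetal gene *HBG2* was lower in 11H1 by a small step. It gave 12985, 12835 and 11294 CPM in the WT libraries, 10393, 10843 and 9917 CPM in those of 11H1 and 13021, 12434 and 14054 CPM in those of 14B5. All 11H1 libraries lay below all WT and 14B5 libraries, while WT and 14B5 overlapped. *HBG2* fell in 11H1 (log2FC = -0.25, SE 0.06, edgeR adjusted p = 0.00398). Its log2FC in 14B5 was 0.07 (SE 0.07, adjusted p = 0.383), and it was lower in 11H1 than in 14B5 (log2FC = -0.34, SE 0.04, adjusted p = 4.2e-05). The mitochondrial share of counts was also highest in 11H1 (7.23% to 7.39%), and it and the clone cannot be told apart in this comparison. *HBG2* passed the threshold in all 15 alternative fits of 11H1 versus WT (log2FC -0.31 to -0.21), including the fit without mitochondrially encoded genes.

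*HBG1*, the other gamma-globin gene, took a minor part. It gave 33.6, 30.5 and 27.9 CPM in the WT libraries, 37.9, 40.1 and 36.8 CPM in those of 11H1 and 32.0, 30.0 and 37.3 CPM in those of 14B5. Its counts rose in 11H1 versus WT (log2FC = 0.32, SE 0.07, edgeR adjusted p = 0.0014), with no overlap, and did not pass in 14B5 (log2FC = 0.09, adjusted p = 0.411). The difference between the clones passed (log2FC = 0.21, SE 0.07, adjusted p = 0.022) although their libraries overlapped, and it was lost when any 1 of 4 libraries was left out (adjusted p up to 0.113). *HBG2* took 99.8% ± 0.0104 of the pair's counts in WT, 99.6% ± 0.00336 in 11H1 and 99.7% ± 0.0126 in 14B5. Few coding bases differ, but the principal transcripts differ in length (779 bases for *HBG1* and 614 for *HBG2*). What the split rests on was not tested. The sum of the pair followed *HBG2*, with a log2FC of -0.24 in 11H1 (adjusted p = 0.00413) and 0.07 in 14B5 (adjusted p = 0.382).

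The alpha-globin genes rose in 11H1. *HBA1* gave 1304, 1464 and 1223 CPM in the WT libraries, 1684, 1875 and 1797 CPM in those of 11H1 and 1605, 1435 and 1332 CPM in those of 14B5. *HBA2* gave 583, 670 and 568 CPM in the WT libraries, 703, 740 and 682 CPM in those of 11H1 and 618, 525 and 475 CPM in those of 14B5. For both genes the 11H1 libraries lay above all others, and WT and 14B5 overlapped. *HBA1* was 1.35-fold higher in 11H1 than in WT (log2FC = 0.43, SE 0.07, edgeR adjusted p = 0.000129), and *HBA2* 1.17-fold higher (log2FC = 0.23, SE 0.06, adjusted p = 0.0074). Neither passed in 14B5 (log2FC = 0.12, adjusted p = 0.267 for *HBA1*, and log2FC = -0.19, adjusted p = 0.13 for *HBA2*), though without 14B5 replicate 1 the *HBA2* value was -0.28 (adjusted p = 0.0253). Summed, the pair was at 1937 ± 177 CPM in WT, 2494 ± 115 CPM in 11H1 and 1997 ± 211 CPM in 14B5, with a log2FC of 0.37 in 11H1 (adjusted p = 0.000339) and 0.03 in 14B5 (adjusted p = 0.807). *HBA1* took 68.7% ± 0.421 of the pair's counts in WT, 71.6% ± 0.973 in 11H1 and 73.0% ± 0.764 in 14B5. These transcripts share one coding sequence, so this split rests on bases outside it.

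The adult beta-like genes were scarce in every group. *HBB*, which codes for the beta chain of adult hemoglobin, gave 2.01, 2.54 and 2.28 CPM in the WT libraries, 1.21, 1.61 and 1.06 CPM in those of 11H1 and 2.50, 2.26 and 2.47 CPM in those of 14B5. It fell in 11H1 (log2FC = -0.81, SE 0.18, edgeR adjusted p = 0.0019) and was lower there than in 14B5 (log2FC = -0.89, adjusted p = 0.000814), and in neither case did libraries overlap. In 14B5 versus WT its log2FC was 0.06 (SE 0.13, adjusted p = 0.709). The minor adult chain gene *HBD* gave 10.01, 6.71 and 5.64 CPM in the WT libraries, 2.59, 3.29 and 3.59 CPM in those of 11H1 and 3.93, 4.01 and 6.25 CPM in those of 14B5. It fell in 11H1 (2.40-fold lower, log2FC = -1.26, SE 0.20, adjusted p = 0.000162), where all libraries lay below the others. In 14B5 versus WT, where libraries overlapped, *HBD* passed the threshold (log2FC = -0.67, SE 0.23, adjusted p = 0.031), but not without WT replicate 1 (adjusted p = 0.12), WT replicate 2 (0.0529), 14B5 replicate 1 (0.117) or 14B5 replicate 2 (0.108). Between the clones it was lower in 11H1 (log2FC = -0.60, adjusted p = 0.0151), but not past the threshold without 11H1 replicate 1 (adjusted p = 0.0829) or 14B5 replicate 3 (0.053).

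The remaining alpha-like genes gave few counts. *HBQ1*, theta-globin, gave 5.10, 6.25 and 3.21 CPM in the WT libraries, 3.43, 4.14 and 4.90 CPM in those of 11H1 and 6.36, 6.52 and 7.08 CPM in those of 14B5. The 14B5 libraries lay above all others, and WT and 11H1 overlapped. *HBQ1* was lower in 11H1 than in 14B5 (log2FC = -0.69, SE 0.12, edgeR adjusted p = 0.000428), and it did not pass versus WT in 11H1 (log2FC = -0.24, adjusted p = 0.32) or in 14B5 (log2FC = 0.43, adjusted p = 0.0809). WT replicate 3 decided the first of these, since without it the log2FC in 11H1 was -0.47 (adjusted p = 0.0123), and without WT replicate 2 the value in 14B5 was 0.66 (adjusted p = 0.0199).

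*HBM*, mu-globin, gave 15, 12 and 4 counts in WT, 6, 7 and 8 in 11H1 and none in any 14B5 library. Against a limit of 3 counts over the 14B5 group, its level in 14B5 was at least 12.1-fold lower than in WT (31 counts) and at least 9.40-fold lower than in 11H1 (21 counts). These limits cover counting error only, and the filter on low counts left *HBM* untested against 14B5. In 11H1 versus WT the libraries overlapped (log2FC = -0.32, SE 0.48, edgeR adjusted p = 0.574). *HBM* and *HBZ* share exonic bases and both were lowest in 14B5, and how far reads were exchanged between them was not tested.

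The balance between the clusters differed in 11H1. Alpha-like genes gave 13.8% ± 0.796 of all globin counts in WT, 19.3% ± 0.664 in 11H1 and 13.2% ± 1.63 in 14B5. All 11H1 libraries (18.6% to 19.9%) lay above all WT (12.9% to 14.5%) and 14B5 libraries (11.4% to 14.5%), and WT and 14B5 overlapped. As a part of the whole library, alpha-like genes went from 0.198% ± 0.0193 in WT to 0.255% ± 0.0116 in 11H1, and beta-like genes from 1.24% ± 0.0858 to 1.07% ± 0.05. For the alpha-like share of all globin counts, the exact permutation test gave p = 0.1 for 11H1 versus WT and p = 0.7 for 14B5 versus WT (2-sided). The alpha-like and beta-like shares of the whole library were not tested. The smallest p that 3 libraries against 3 allow is 0.1, so no share could pass 0.05. Over the 24 comparisons of shares made, those without overlap had an adjusted p of 0.126.

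Within the beta-like counts, gamma-globin took 99.2% ± 0.0330 in WT, 98.9% ± 0.0289 in 11H1 and 99.5% ± 0.0315 in 14B5. *HBB* and *HBD* together took 0.0775% ± 0.0123 in WT, 0.0423% ± 0.00549 in 11H1 and 0.0535% ± 0.00694 in 14B5. Their share was thus below WT in every library of both clones (exact permutation p = 0.1 each). Within the alpha-like counts, *HBA1* and *HBA2* took 97.1% ± 0.148 in WT, 99.1% ± 0.0584 in 11H1 and 99.5% ± 0.0726 in 14B5, the counterpart of the smaller *HBZ* share. *HBM* and *HBQ1* took 0.251% ± 0.0627, 0.172% ± 0.0299 and 0.335% ± 0.0524, and here WT overlapped each clone (exact permutation p = 0.2 each).

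**Figure D3:**
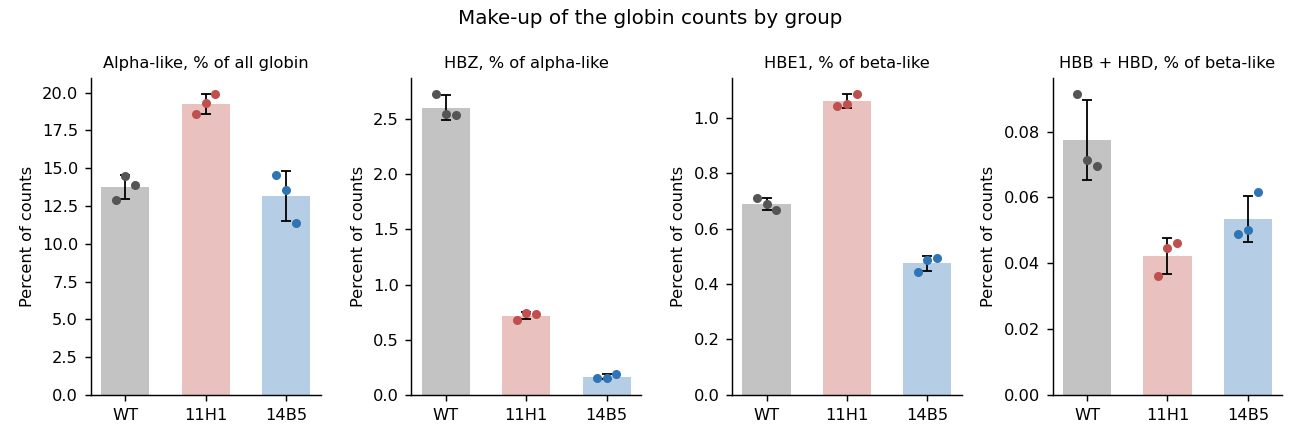
Shares of counts by group: alpha-like genes among all globin counts, *HBZ* among alpha-like counts, and *HBE1* and *HBB* with *HBD* among beta-like counts. Bars are means, error bars SD and points single libraries (n = 3); each axis starts at 0. *HBZ* steps down from 2.60% to 0.167%, and the *HBE1* share is highest in 11H1 and lowest in 14B5.

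Genes beside the members were read from lists of the flanking genes. In the beta-globin cluster, the transcribed pseudogene *HBBP1*, between *HBD* and *HBG1*, gave 69.3, 66.1 and 64.8 CPM in the WT libraries, 28.5, 30.1 and 29 CPM in those of 11H1 and 41.0, 43.1 and 47.8 CPM in those of 14B5. It fell in both clones with no overlap (log2FC = -1.19, edgeR adjusted p = 2.9e-09 in 11H1, and log2FC = -0.62, adjusted p = 1.91e-05 in 14B5). *BGLT3*, a noncoding RNA gene next to it, gave 7.38, 5.70 and 5.10 CPM in the WT libraries, 11.4, 11.2 and 10.1 CPM in those of 11H1 and 5.33, 3.66 and 4.61 CPM in those of 14B5. It rose in 11H1 (log2FC = 0.85, adjusted p = 7.32e-05) and was lower in 14B5 (log2FC = -0.45, adjusted p = 0.0458), where it overlapped WT. From *HBB* to *HBE1*, then, *HBB*, *HBD*, *HBBP1* and *HBG2* were lower in 11H1, and *BGLT3*, *HBG1* and *HBE1* were higher. The split between *HBG1* and *HBG2* is uncertain, and their sum was lower in 11H1 (log2FC = -0.24). Annotated exons of *HBD* overlap those of *HBBP1*, and those of *HBG2* overlap those of *HBE1*. How far reads were exchanged within these pairs was not tested.

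Of the 16 listed neighbours of the beta-globin cluster, 10 were tested, and 2 rose and 6 fell in 11H1 (80.0%, beside 64.6% of all genes), against 1 and 6 in 14B5 (70.0%, beside 53.5%). The largest falls outside the cluster were in the neighbouring group of TRIM ubiquitin ligase genes, with *TRIM6* at a log2FC of -1.67 (SE 0.07) in 11H1 and -1.17 (SE 0.07) in 14B5, and *TRIM34* at -1.27 and -0.99. *TRIM22* fell in both as well (log2FC = -0.64 and -0.83). *TRIM68* rose in 11H1 (0.23) and *RRM1*, a subunit of ribonucleotide reductase, rose in 14B5 (0.27).

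Of the 13 listed neighbours of the alpha-globin cluster, 10 were tested, and 3 rose and 2 fell in 11H1, against 3 and 1 in 14B5. These shares, 50.0% and 40.0%, were below the 64.6% and 53.5% of all genes tested. The DNA repair gene *MPG* fell in 11H1 (log2FC = -0.83, SE 0.11). *NPRL3*, whose introns hold the alpha-globin enhancers and which lies next to *HBZ*, had a small fall in 14B5 (log2FC = -0.13, SE 0.04, edgeR adjusted p = 0.0276). *LUC7L*, on the other side of the cluster, rose in 11H1 (log2FC = 0.42, SE 0.05). *PDIA2* rose in both clones (0.94 and 1.07) from 0.708 ± 0.268 CPM in WT, and *ARHGDIG* rose in 14B5 (1.05) from 1.84 ± 0.277 CPM in WT. The log2FC of *PDIA2* in 14B5 was the largest among these neighbours in either clone, beside -3.99 for *HBZ*.

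**Figure D4:**
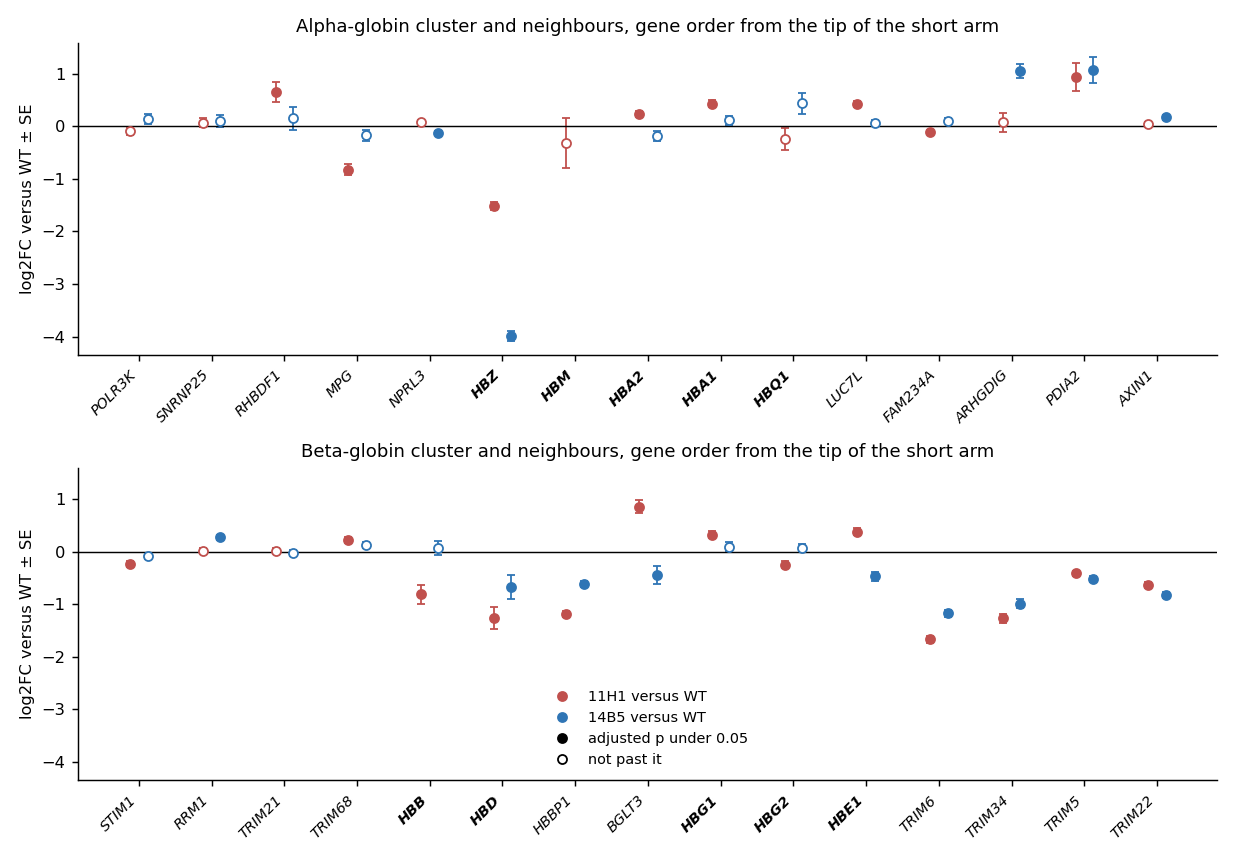
Log2FC versus WT of the globin genes (bold) and their tested neighbours, in gene order along chromosome 16 (upper panel) and chromosome 11 (lower panel); bars are the SE, and filled points passed an adjusted p of 0.05. *HBZ* is the lowest point of the upper panel, at -1.52 and -3.99, and *HBBP1* and *HBD* are lower in both clones in the lower panel.

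Regulators of globin genes were taken from a list of 50, of which 48 were tested. In 11H1 versus WT, 28 rose and 6 fell (70.8%, beside 64.6% of all genes), with a median log2FC of 0.17 where the median of all genes was -0.01. In 14B5, 22 rose and 4 fell (54.2%, beside 53.5%), with a median of 0.09. The nuclear factor I genes *NFIA* and *NFIX*, linked to the repression of gamma-globin, rose in both clones. *NFIA* was at 30.7 to 31.1 CPM in WT, 49.4 to 53.6 CPM in 11H1 and 59.5 to 65.5 CPM in 14B5 (log2FC = 0.74 and 1.0, SE 0.05 each). *NFIX* was at 47.5 to 49.5 CPM in WT, 79.6 to 80.4 CPM in 11H1 and 80.3 to 93.1 CPM in 14B5 (log2FC = 0.73 and 0.83). *LIN28B*, an RNA-binding protein gene of the fetal program, fell in both, from 100.3 to 113 CPM in WT to 67.1 to 68.8 CPM in 11H1 and 71.9 to 79.5 CPM in 14B5 (log2FC = -0.62 and -0.46).

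*KLF1* moved in opposite directions in the clones. This gene, which activates adult beta-globin, was at 335 to 389 CPM in WT, 268 to 306 CPM in 11H1 and 407 to 452 CPM in 14B5. It fell in 11H1 (log2FC = -0.28, edgeR adjusted p = 0.00343), rose in 14B5 (log2FC = 0.26, adjusted p = 0.00912) and was lower in 11H1 than in 14B5 (log2FC = -0.55, adjusted p = 5.64e-06). In 11H1, *MYB* fell (-0.31) and *MAFG*, a partner of NFE2, rose (0.51), and neither passed in 14B5 (adjusted p = 0.964 and 0.42 by edgeR). *LMO2*, which links GATA1 with TAL1, rose in 11H1 (0.17) and fell in 14B5 (-0.27). The fetal RNA-binding gene *IGF2BP1* fell in 14B5 (-0.18, and 0.08 in 11H1, adjusted p = 0.185), and *KLF3* rose in both clones (0.26 and 0.55). The gamma-globin repressor genes *BCL11A* and *ZBTB7A* were looked up after the values were seen. *BCL11A* was at 16.6 to 17.9 CPM in WT and rose a little in both clones (log2FC = 0.23, adjusted p = 0.0058, and 0.19, adjusted p = 0.0269). *ZBTB7A* was at 11.7 to 13.8 CPM in WT and rose as well (log2FC = 0.48, adjusted p = 0.000101, and 0.32, adjusted p = 0.00521).

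**Figure D5:**
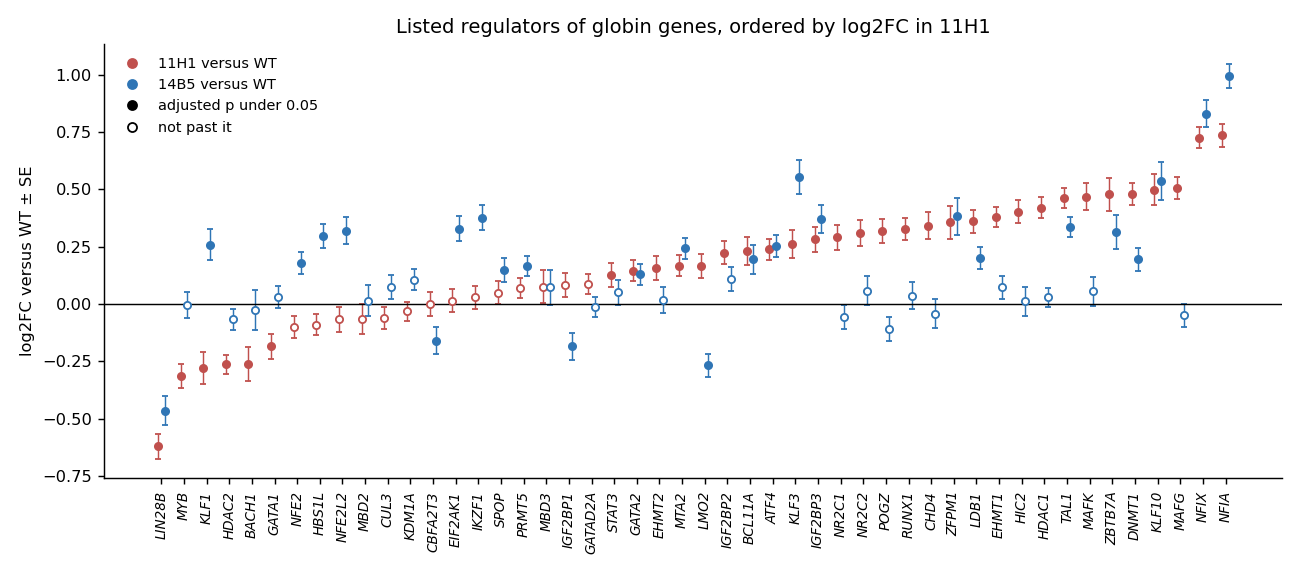
Log2FC versus WT of the listed regulators of globin genes, ordered by the value in 11H1; bars are the SE, and filled points passed an adjusted p of 0.05. *LIN28B* is the lowest and *NFIA* and *NFIX* are the highest points in both clones, while *KLF1* lies on opposite sides of 0.

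The genes with a pattern most like the 3 most abundant members were named by Pearson's r of log2 CPM over the 9 libraries, among 13581 genes whose mean reached 1 CPM. Libraries of a group share their cells, so r is a description and largely follows the 3 group levels. Next to *HBG2* stood *MRPS18A* (r = 0.992), *PRELID1* (0.991), *PSMB3* (0.990), *MRPL17* (0.985) and *JTB* (0.982). Next to *HBA1* stood *NAIP* (0.972), *TRA2A* (0.967), *ERF* (0.965), *AC024075.2* (0.964) and *CDK5R1* (0.960). Next to *HBA2* stood *ANKRD10* (0.946), *AC005839.1* (0.942), *H2AFJ* (0.940), *PCMTD2* (0.935) and *KCNJ14* (0.935). No globin gene was among them.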

How the data were processed

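Bulk RNA-seq covered 9 libraries. The values deposited by the authors are expected counts from RSEM, in which reads that match several genes are divided by estimate, without normalization for depth or length. The submitters' processing notes name STAR 2.7.9a, Picard, RSEM and GRCh38; the annotation release is not given in the sources used here. The labels and the paper's methods name different library kits. Groups came from the labels. Expected counts were rounded and tested with edgeR 4.0.16 in R 4.3.3 (TMM, filterByExpr, quasi-likelihood F test, Benjamini-Hochberg, threshold 0.05), each pair of groups fitted on its own. Shares were computed from unrounded counts and compared with an exact permutation test (scipy 1.17.1). The paper gives fewer KO libraries than the 6 deposited, and all 6 were used.

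The members, lists, tests and alternatives were chosen with earlier results of these data known. Named besides all members were *DYRK1A*, up to 3 rises and 3 falls of each list per clone (mean of at least 1 CPM), and the 5 genes most like each of the 3 most abundant members. Some genes that this rule covers are not reported here. Alternatives were DESeq2 1.42.0, limma 3.58.1 (voom), other filters, gene sets and length scaling, summed pairs, one fit of 9 libraries, the replicate block and each library left out. The steps were tested on simulated counts.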

Additional observations from a re-analysis of the deposited data

Results flagged for a closer look

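For 9 globin genes the change in 11H1 and the change in 14B5 differed, by the direct test of one clone against the other (edgeR, adjusted p under 0.05), which is what flagged them. The difference, 11H1 minus 14B5 on the log2 scale, was 2.45 for *HBZ*, 0.83 for *HBE1*, 0.40 for *HBA2*, 0.30 for *HBA1* and 0.21 for *HBG1*. It was -0.89 for *HBB*, -0.69 for *HBQ1*, -0.60 for *HBD* and -0.34 for *HBG2*. *HBZ* was lower in both clones, by unequal amounts, whereas *HBE1* moved in opposite directions. In this comparison 63.7% of all genes tested passed, so a difference between the clones is common.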

How the results depend on the processing

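Of 336 refitted log2FC values of the members, 318 kept their direction and their side of the threshold. This tally leaves out limma-voom, the filter of at least 10 counts in every library, the summed pairs and the fit of protein-coding genes only. The changes of *HBZ* and *HBE1* kept both in all 16 alternatives of each comparison, those settings included. *HBZ* stayed between -1.60 and -1.45 in 11H1 and between -4.04 and -3.91 in 14B5. With no filter on low counts, 5 rather than 3 members passed in 14B5 versus WT, since *HBQ1* (adjusted p = 0.0124) and *HBM* joined; *HBM* passed in each of the 6 alternatives that tested it there (adjusted p 2.82e-05 to 0.00605). The Wald test of DESeq2 called 4. Leaving out single libraries gave 8 to 9, 2 to 4 and 7 to 9 members in 11H1 versus WT, 14B5 versus WT and 11H1 versus 14B5. Reversals were *HBM* in 11H1 (-0.64 to 0.0335 over the libraries left out, above 0 without 11H1 replicate 1), *HBB* in 14B5 (-0.0171 to 0.15, below 0 without WT replicate 1), neither of which had passed, and the alpha-like share in 14B5 versus WT, which ran from -1.29 to 0.30 percentage points over the libraries left out. The cause was not tested. Replicate numbers did not pair the samples (correlations of same-numbered deviations -0.236 to 0.099); with the replicate block 8, 2 and 9 members passed, and *HBD* in 14B5 versus WT was lost (adjusted p = 0.0533). With 3 libraries a group, shares could not pass 0.05, and *HBM* rests on at most 15 counts a library.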

Other observations

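Genes of hemoglobin assembly, heme synthesis and iron handling were read from a list of 26, of which 21 were tested. The list also held *AHSP*, *HP*, *HPX*, *CYGB*, *NGB* and *MB*. In 11H1, 6 rose and 7 fell (61.9%, beside 64.6% of all genes), and in 14B5, 9 rose and 5 fell (66.7%, beside 53.5%). Between the clones, 2 were higher and 13 lower in 11H1 (71.4%, beside 63.7% of all genes, 31.6% higher and 32.1% lower), with a median log2FC of -0.30 (all genes -0.0044). *HMOX1*, the enzyme that breaks heme down, was at 73.6 to 80.4 CPM in WT, 18.8 to 21.0 CPM in 11H1 and 24.4 to 29.9 CPM in 14B5 (log2FC = -1.93 and -1.50). *CPOX*, a late step of the pathway, fell in both clones (-1.10 and -0.44). *FECH*, which inserts the iron, rose in both (0.28 and 0.67), as did *SLC11A2* (0.40 and 0.42) and *SLC25A39* (0.31 and 0.52), and *TMEM14C* fell in both (-0.74 and -0.19). The mitochondrial transporter gene *ABCB10* rose in 14B5 (0.59, and 0.01 in 11H1, adjusted p = 0.935 by edgeR), and the iron importer gene *SLC25A37* fell there (-0.47, and 0.06 in 11H1, adjusted p = 0.26).

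Of 25 other erythroid genes, all tested, 11 rose and 9 fell in 11H1 and 11 rose and 10 fell in 14B5 (80.0% and 84.0%, beside 64.6% and 53.5% of all genes). *SLC4A1*, the anion exchanger of the red cell membrane, was at 10.1 to 12.2 CPM in WT, 53.0 to 56.7 CPM in 11H1 and 37.4 to 39.3 CPM in 14B5 (log2FC = 2.30 and 1.75), and the erythropoietin receptor gene *EPOR* rose too (1.05 and 0.93). *CA2*, a carbonic anhydrase gene, rose as well (0.49 and 0.86). The largest falls were of *RHCE* (-1.34 and -1.97), *GYPC* (-0.86 and -0.27) and *RHD* (-0.84 and -1.35) in 11H1, and of *GYPB*, *RHCE* and *GYPE* (-0.40 in 11H1 and -1.60 in 14B5) in 14B5. *GYPB* had a log2FC of -0.13 in 11H1 (edgeR adjusted p = 0.197) and fell in 14B5 (-1.97). *RHD* and *RHCE*, and *GYPB* and *GYPE*, are near-identical copies whose counts may be divided between them. *AHSP*, which stabilizes free alpha chains, was looked up after the values were seen and lay below 1 CPM in every group. It belongs to the list of hemoglobin assembly and heme, where it is counted among the falls in 11H1. It was at 0.656 to 0.854 CPM in WT and 0.426 to 0.547 CPM in 11H1 (log2FC = -0.62, edgeR adjusted p = 0.0397). In 14B5 it was at 0.519 to 0.626 CPM and did not pass versus WT (log2FC = -0.33, edgeR adjusted p = 0.208). The difference between the clones did not pass either (log2FC = -0.30, edgeR adjusted p = 0.285).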
